A study of Mus musculus with 5 samples.

Results

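Of the 5 arrays in the series, 2 carried high signals of the added poly-A control RNAs and B-lineage transcripts (the marrow-like pair), and 3 carried low control signals and transcripts of lung (the lung-like arrays). The split was drawn on the bacterial control transcripts Dap, Lys, Phe and Thr, which are spiked into RNA before labelling: an array belongs to the pair where the median of the 24 control probe sets is above 10 on the log2(signal + 16) scale. That median was 13.54 in KA/KA 1 and 12.84 in WT 1, and 7.25 in KA/KA 2, 8.05 in KA/KA 3 and 5.97 in WT 2, so WT 1 lies nearest above the border and KA/KA 3 nearest below it. Genotype was set aside, and every value below is a level or a difference on that scale, on which a signal of 0 reads 4 and a difference of 2 is 4-fold. Values are always given in the order KA/KA 1, WT 1 for the pair and KA/KA 2, KA/KA 3, WT 2 for the lung-like arrays.

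Per the labels, all 5 RNAs came from B220+ cells of femur and tibia marrow, enriched on magnetic columns after lysis of red cells, from untreated mice 4 weeks old on the FVB background. KA/KA mice carry IKKαK44A/K44A, a kinase-dead knock-in of the IκB kinase α subunit in both copies, and WT mice are their littermates. RNA input was 150 ng per array, and the labels do not say whether an array is 1 animal or a pool, so the tests below measure only the spread between these arrays. The replicate numbers in the labels follow the split: both arrays of the pair are numbered 1, and the lung-like arrays are numbered 2 or 3. The sets were already known to differ in mouse genes when they were proposed, so a p-value here measures the size of a difference against the spread inside the sets and lends no support to the split itself.

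B220 is a form of the CD45 protein on B-lineage cells. In marrow, early B cells assemble their receptor genes with the RAG recombinase and terminal transferase, divide in bursts, and pair the first heavy chain with a surrogate light chain. The same marrow makes neutrophils, whose granule proteins are transcribed in successive waves, as well as red cells and platelets. Lung is built of surfactant-secreting alveolar type 2 cells, flat alveolar type 1 cells, airway club and ciliated cells, and a dense mesh of capillaries, fibroblasts and smooth muscle.

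The 4 markers Rag1, Dntt, Sftpc and Scgb1a1 were read first. They were chosen with earlier results of these data known, so their levels describe the split and do not test it. Rag1, a subunit of the recombinase, read 12.80 and 12.79 in the pair and 4.09, 4.09 and 4.10 in the lung-like arrays, at the floor of the scale. Dntt, which encodes terminal transferase, read 12.18 and 12.20 against 6.07, 4.22 and 5.28. The lung-like arrays therefore lack these early B-cell transcripts although the labels call them marrow B220+ cells. Sftpc, a surfactant protein of type 2 cells, read 6.53 and 5.97 in the pair and at least 14.04, the level of WT 2, in each lung-like array, and Scgb1a1, the secretoglobin of club cells, read 4.43 and 4.40 against 15.16, 15.31 and 14.29. Ptprc, the gene of CD45 and so of B220, read 13.57 and 13.74 against 12.62, 13.48 and 11.93, a difference of -0.98 (SE 0.45, limma adjusted p = 0.124). All white cells express Ptprc, and this probe set is not specific for the B220 form.

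Some promoters of the genes that carry the contrast are shown here because members of one list moved together. They are the 150 bases before the gene start in RefSeq, build GRCm38.p6, written 5′ to 3′ on the gene's strand. Capitals in the first 4 mark CCAAT, the letters bound by NF-Y, or ATTGG, which is CCAAT read on the other strand. They also mark TTTGAA (or TTCAAA), the cell cycle homology element. These cell cycle genes were lower in the lung-like arrays.
Ccnb2, chr9:70421555-70421704, minus strand: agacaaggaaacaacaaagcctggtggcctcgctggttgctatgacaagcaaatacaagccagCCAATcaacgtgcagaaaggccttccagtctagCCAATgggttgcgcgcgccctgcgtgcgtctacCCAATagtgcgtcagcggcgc
Cdk1, chr10:69352913-69353062, minus strand: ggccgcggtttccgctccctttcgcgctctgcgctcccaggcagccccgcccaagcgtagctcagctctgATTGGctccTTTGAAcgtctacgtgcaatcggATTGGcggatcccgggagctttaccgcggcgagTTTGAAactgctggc
Cdc20, chr4:118437344-118437493, minus strand: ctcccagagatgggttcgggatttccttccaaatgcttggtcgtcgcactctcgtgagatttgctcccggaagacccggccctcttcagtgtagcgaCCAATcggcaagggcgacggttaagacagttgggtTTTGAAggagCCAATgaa
Top2a, chr11:99024190-99024339, minus strand: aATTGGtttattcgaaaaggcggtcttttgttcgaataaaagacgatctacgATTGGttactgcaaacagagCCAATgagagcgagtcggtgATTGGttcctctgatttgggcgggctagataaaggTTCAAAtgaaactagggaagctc

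Neutrophil granule genes were also lower in the lung-like arrays. In the next 4 windows capitals mark GAGGAAG, letters typical of PU.1, and TTNNGCAA, letters typical of C/EBP factors, on either strand.
Elane, chr10:79886162-79886311, plus strand: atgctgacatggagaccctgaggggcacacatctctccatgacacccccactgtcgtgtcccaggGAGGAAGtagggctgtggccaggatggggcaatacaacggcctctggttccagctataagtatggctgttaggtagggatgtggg
Prtn3, chr10:79879517-79879666, plus strand: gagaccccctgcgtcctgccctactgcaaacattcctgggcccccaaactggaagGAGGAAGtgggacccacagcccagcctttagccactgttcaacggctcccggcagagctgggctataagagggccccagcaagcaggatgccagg
Ngp, chr9:110419658-110419807, plus strand: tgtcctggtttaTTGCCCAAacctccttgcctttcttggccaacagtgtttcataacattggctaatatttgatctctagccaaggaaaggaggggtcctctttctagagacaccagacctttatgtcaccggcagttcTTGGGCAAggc
Ltf, chr9:111019142-111019291, plus strand: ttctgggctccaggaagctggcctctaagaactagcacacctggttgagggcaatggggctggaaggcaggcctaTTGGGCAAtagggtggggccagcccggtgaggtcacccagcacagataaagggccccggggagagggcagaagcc

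Sftpb, a surfactant protein gene of type 2 cells, stands for the lung genes that were higher in the lung-like arrays. Capitals mark CTCAAG, letters typical of NKX2-1, and GCAAACA, which on the other strand reads TGTTTGC, a form of the forkhead letters TGTTTNC.
Sftpb, chr6:72304460-72304609, plus strand: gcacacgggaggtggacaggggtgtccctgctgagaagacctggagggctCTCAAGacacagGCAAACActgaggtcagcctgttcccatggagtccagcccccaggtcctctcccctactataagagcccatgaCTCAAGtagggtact

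Over the 250 bases before the start, CCAAT on either strand stood in 19 of 23 cell cycle promoters (82.6%) and in 36.0% of the promoters of the 9229 tested genes with a window in the table. It was as frequent in some other lists, at 8 of 10 circadian clock promoters and 6 of 8 erythroid promoters. TTTGAA stood in 9 of 23 cell cycle promoters (39.1%) against 10.5% of tested genes. It also stood in 4 of 12 fibroblast and matrix, 3 of 11 xenobiotic metabolism and 2 of 7 T cell promoters. Some lists had none, such as 0 of 14 B-lineage transcription factor promoters. GAGGAAG stood in 4 of 6 primary granule promoters against 11.1%, and TTNNGCAA in 4 of 7 secondary granule promoters against 7.34%. Other lists held them too: GAGGAAG stood in 3 of 6 plasma cell, 3 of 6 platelet and 3 of 7 T cell promoters, and TTNNGCAA in 3 of 6 plasma cell promoters. CTCAAG stood in 2 of 12 type 2 cell promoters (16.7%) against 12.3% of tested genes, so these letters were about as frequent elsewhere. TGTTTNC stood in 3 of 12 type 2 cell promoters (25.0%) against 13.3% of tested genes. Lists that fell held it at similar shares, with 7 of 23 cell cycle promoters (30.4%) and 3 of 11 B cell receptor and surface gene promoters (27.3%). In all, 17 strings were searched and the windows printed were picked after the matches were seen; a match describes letters and shows no binding.

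**Figure D1:**
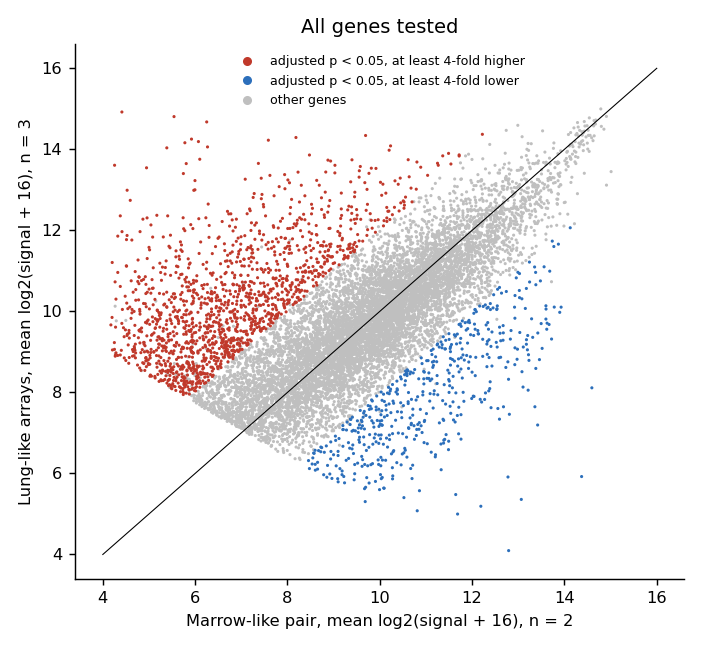
Each point is 1 of 11392 genes, with its mean level in the marrow-like pair (x axis, n = 2) and in the lung-like arrays (y axis, n = 3), both as log2(signal + 16). Coloured points passed an adjusted p of 0.05 and differed at least 4-fold: 1476 genes lie above the line of equal level and 503 below it.

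Across the genome the contrast was broad. Of 11392 genes tested with limma (two-sided, Benjamini-Hochberg adjusted p under 0.05), 2666 (23.4%) were higher in the lung-like arrays and 1902 (16.7%) lower, which is 40.1% in either direction. At least 4-fold apart were 1476 genes (13.0%) on the higher side and 503 (4.42%) on the lower side. At 16-fold the counts were 443 and 91, and at 64-fold 63 and 9. The median size of the difference between the set means was 0.72. WT 1 and KA/KA 1, the single arrays of the pair, differed by a median size of 0.34. That value does not cover the spread among the lung-like arrays, which is described below.

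The balance of directions depended on scaling. The median signal was 95.7 and 96.9 in the pair and 124, 127 and 128 in the lung-like arrays, and the median difference over all genes was 0.05 as deposited, -0.01 after quantile normalisation and -0.29 after centring each array on its median. With centring, 2115 genes passed as higher and 3184 as lower, so that the share of calls on the higher side was 39.9% in place of 58.4%. The counts also leaned on the pair: without KA/KA 1 they were 1831 and 897, and without WT 1 they were 1477 and 745. The lists below are described by counts against these shares, and a gene with signal in 1 set alone can enter the test only through that set.

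The 15 largest falls among called genes whose sets did not overlap ran from 8.70 for Rag1 to 5.24 for Bst2 and held 4 genes of receptor assembly and the surrogate light chain (Rag1, Vpreb1, Dntt and Igll1) and 4 of primary neutrophil granules (Elane, Mpo, Ctsg and Prtn3). Camp, the cathelicidin of neutrophil granules, read 14.00 and 14.75 against 5.07, 8.09 and 4.61. Olfm4, a granule protein of a subset of neutrophils, read 12.46 and 13.15 against 8.20, 8.56 and 5.61, and Esco2, which acetylates cohesin during DNA replication, 10.94 and 10.78 against 5.84, 5.66 and 5.23. Camp was second in size, and Olfm4 and Esco2 were among the smallest of the 15. Each of these fell in the lung-like arrays with no overlap of levels, by 8.45, 5.35 and 5.29 (limma adjusted p = 0.000905, 0.00299 and 0.000155); Olfm4 did not pass without WT 1.

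The 15 largest rises ran from 10.51 for Scgb1a1 to 7.66 for Sec14l3 and held 5 genes of the type 2 cell list, 3 of the club cell list and 2 of the type 1 cell list, with Inmt from the fibroblast list. Wfdc2, a secreted antiprotease-like protein of airway epithelium, read 4.27 and 4.24 in the pair and 13.55, 13.69 and 13.57 in the lung-like arrays. It had the smallest adjusted p of all genes (difference 9.35, SE 0.21, limma adjusted p = 1.16e-05). Its levels in the lung-like arrays lay close together, and those in the pair lay near the floor of 4, which limits their spread. Sema3c, a secreted semaphorin, read 4.84 and 4.22 against 11.73, 13.76 and 13.48. Chia1, an acidic chitinase, read 4.47 and 4.72 against 13.82, 11.98 and 12.42. Inmt, a methyltransferase of lung fibroblasts and endothelium, read 6.12 and 6.02 against 13.55, 14.89 and 14.13.

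**Figure D2:**
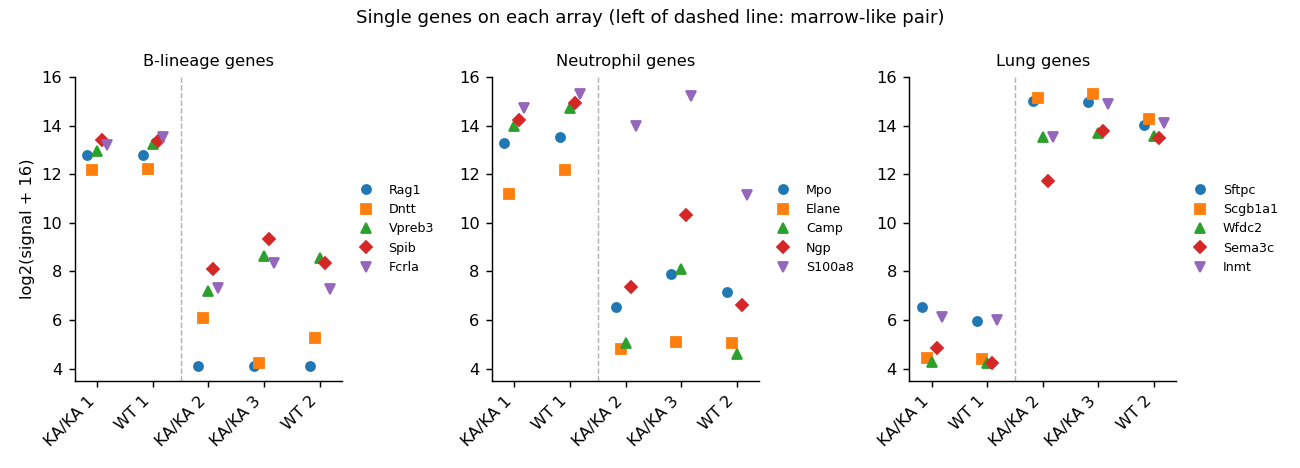
Level of single genes on each array as log2(signal + 16): B-lineage genes (left), neutrophil genes (middle) and lung genes (right); the dashed line separates the marrow-like pair from the lung-like arrays. Rag1 reads 12.80 and 12.79 in the pair and at most 4.10 in the lung-like arrays, while S100a8 stays at 13.97 and 15.21 in KA/KA 2 and KA/KA 3.

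The list of receptor assembly and surrogate light chain genes also held other genes, such as Il7r and Sox4. Most of its tested members were lower in the lung-like arrays, while the means of 2 were higher. Of the 11 on the list that could be tested, 8 were lower and none higher (median -2.08), against 16.7% of all genes lower; 5 were lower without KA/KA 1, and the median was -3.72 without KA/KA 3 and -3.75 without WT 2, when 12 could be tested. Vpreb3, a chaperone of the pre-B cell receptor, read 12.97 and 13.24 against 7.18, 8.64 and 8.57, a fall of 4.97 (limma adjusted p = 0.000399). Sox4, a transcription factor needed for early B cells but also made in many tissues, fell by 1.61 from a still high level of 13.83 and 13.59 to between 11.90 and 12.31. Il7r, the interleukin 7 receptor chain shared with T cells and innate lymphoid cells, read 12.62 and 12.47 against 12.63, 12.09 and 9.70 and did not pass (limma adjusted p = 0.319). The recombinase partner Rag2 and the early B-cell gene Arpp21 were under the filter on dim genes; Rag2 read 10.34 and 9.73 against 4.48, 5.25 and 4.50.

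B-lineage transcription factors followed, with 12 of 15 tested lower and none higher (median -3.15). Ebf1, which opens the B-cell programme, read 12.28 and 11.71 against 7.88, 8.51 and 9.12, and Pax5, which holds cells to it, read 9.07 and 8.67 against 5.37, 6.74 and 6.49. Spib, an Ets factor of B cells and plasmacytoid dendritic cells, fell by 4.79 (13.39 and 13.37 against 8.10, 9.33 and 8.35; limma adjusted p = 0.000249). Myb, the factor of dividing progenitors, fell by 4.65, Bcl11a by 4.36 and Pou2af1, a coactivator of octamer factors, by 3.96. Foxo1, which is widely expressed, read 11.57 and 10.51 against 9.99, 10.65 and 10.38, and the sets overlapped.

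The receptor and its partners moved the same way: 14 of 17 tested surface and signalling genes were lower, none higher (median -3.18); 9 were lower without KA/KA 1 and 7 without WT 1. Cd79b, the signalling chain of the B-cell receptor, read 13.63 and 14.17 against 9.44, 11.10 and 9.39. Ms4a1, which encodes CD20, read 13.48 and 13.76 against 8.66, 10.97 and 9.49. In both, KA/KA 3 was the highest of the lung-like arrays, and no lung-like array reached the pair. Fcrla, an Fc receptor-like protein inside B cells, showed the largest fall of the list at 5.71 (limma adjusted p = 0.000173). Because these are bulk RNAs, fewer cells of a type and less RNA per cell cannot be told apart here or below.

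Plasma cell genes gave no common direction: of 8 tested, 1 was higher and 2 lower (median -0.29, from -0.97 without KA/KA 2 to 0.26 without WT 2). Mzb1, a chaperone of antibody secretion, fell by 3.47 (12.93 and 13.64 against 10.53, 10.33 and 8.59; limma adjusted p = 0.00406). Tnfrsf13b, the receptor TACI, fell by 3.21. Prdm1, the plasma cell regulator that other tissues also use, was higher by 1.54 (limma adjusted p = 0.0122). Mzb1 did not pass without WT 1, nor Prdm1 without KA/KA 1 or without WT 1. The immunoglobulin joining chain gene Jchain read 12.28 and 13.81 against 13.51, 12.32 and 10.18, and the immunoglobulin A heavy chain gene Igha 13.25 and 14.19 against 13.03, 7.10 and 12.07. KA/KA 3 was the lowest array for Igha and WT 2 for Jchain.

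Cell cycle genes were lower almost throughout. Of 28 tested, 27 fell, 26 of them at least 4-fold, and none rose (median -3.89), against 16.7% and 4.42% of all genes. The mitotic genes whose promoters are printed above read as follows: Ccnb2, a cyclin of mitosis, 12.16 and 12.42 against 8.37, 8.24 and 7.36; Cdk1, its kinase, 12.03 and 12.32 against 8.63, 8.20 and 6.66. Top2a, which untangles replicated chromosomes, read 13.46 and 12.94 against 9.73, 9.30 and 8.13, and Cdc20, which triggers chromosome separation, 13.24 and 13.12 against 9.95, 9.47 and 8.48. WT 2 was the lowest array for all 4 genes.

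Genes of DNA replication fell as well. Mcm5, a subunit of the replicative helicase, read 13.06 and 13.35 against 9.85, 9.62 and 8.75, and Rrm2, a subunit of ribonucleotide reductase, 13.37 and 13.66 against 9.92, 9.73 and 7.61. Pcna, the sliding clamp, fell less, by 1.67 from 13.79 and 14.36 (limma adjusted p = 0.00411). Foxm1, a regulator of mitotic genes, read 8.83 and 8.39 against 7.97, 7.67 and 8.11 and was the member that did not pass (limma adjusted p = 0.109). Of 12 histone genes tested, 6 were lower and 1 higher (3 lower without WT 1, and none higher without KA/KA 1, WT 1 or KA/KA 3).

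Neutrophil genes were listed by maturation stage. Of the primary granule genes, transcribed in promyelocytes, 6 of 6 tested fell (median -5.71). Mpo, myeloperoxidase, read 13.30 and 13.54 against 6.55, 7.88 and 7.16; Elane, neutrophil elastase, 11.20 and 12.18 against 4.83, 5.09 and 5.08; and Prtn3, proteinase 3, 12.25 and 12.94 against 6.87, 8.17 and 6.98. Of the secondary granule genes, made in myelocytes, 5 of 7 fell (median -3.52; 3 without KA/KA 1 and 2 without WT 1). Ltf, lactoferrin, read 13.66 and 14.20 against 10.25, 9.27 and 10.80. Ngp, a granule protein of the cathelicidin kind, read 14.23 and 14.95 against 7.38, 10.32 and 6.64, with KA/KA 3 above the other lung-like arrays.

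Of the genes of mature neutrophils 1 of 7 tested was lower and none higher (median -1.25), against 16.7% of all genes lower. Without WT 2 the median was -0.42 with 1 higher gene, and without KA/KA 3 it was -1.81 with 2 lower. S100a8 and S100a9 encode the calprotectin subunits. S100a8 read 14.71 and 15.31 in the pair and 13.97, 15.21 and 11.16 in the lung-like arrays; S100a9 read 14.65 and 15.17 against 13.81, 14.87 and 10.67. KA/KA 2 and KA/KA 3 thus held levels near the pair, WT 2 was lower by more than 2 units than any other array, and neither gene passed (limma adjusted p = 0.282 and 0.238). Mmp9, gelatinase, was the member that fell, by 1.53; without KA/KA 1 or without WT 1 none passed.

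Other marrow lineages were represented in the pair too, although the labels describe a B220 selection. Of 11 erythroid genes tested 8 fell and none rose (median -3.19). Without KA/KA 1 the median was -2.75 over 8 tested genes, and without WT 1 it was -1.63 over 7. Fewer genes were bright enough to test in these fits. Car1, the carbonic anhydrase of red cells, read 10.52 and 11.10 against 4.62, 5.39 and 5.23, and Slc4a1, the band 3 anion exchanger, 11.35 and 11.94 against 7.80, 7.86 and 8.31. Alas2, the red cell enzyme that starts haem synthesis, read 8.86 and 10.41 against 10.79, 10.11 and 11.65 and was not lower in the lung-like arrays. Of 6 platelet genes 4 fell (median -1.51), but 1 passed without KA/KA 1 and none without WT 1; Pf4, platelet factor 4, read 12.17 and 12.54 against 10.25, 10.95 and 10.81.

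Plasmacytoid dendritic cells, which also carry B220, supplied 6 lower genes of 9 tested (median -2.25; 3 without KA/KA 1 and 3 without WT 1, then with a median of -1.42). Siglech, a lectin of these cells, read 10.30 and 11.12 against 6.85, 4.88 and 6.87. Ccr9, a chemokine receptor, read 10.67 and 11.27 against 8.26, 6.82 and 6.84. Bst2, or tetherin, read 10.90 and 11.76 against 6.71, 5.02 and 6.54. KA/KA 1 and WT 1 were above every lung-like array for all 3 genes.

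Genes named for blood stem cells were mostly higher in the lung-like arrays. Of 9 tested, 7 were higher in the lung-like arrays and 1 lower (median 2.16; 4 higher without KA/KA 1 and 3 without WT 1). Mecom, a zinc finger factor of stem cells and also of lung endothelium and epithelium, read 4.22 and 4.31 in the pair and 10.74, 10.37 and 11.08 in the lung-like arrays, a rise of 6.46 (limma adjusted p = 8.58e-05). Cd34, a surface sialomucin also of vessels, read 7.57 and 8.03 against 11.81, 11.63 and 11.70. Kit, the receptor of stem cell factor, also of mast cells and some vessels, read 9.54 and 9.29 against 10.48, 12.05 and 12.18. Flt3, the receptor of lymphoid progenitors, was the member that fell, by 1.03 (limma adjusted p = 0.0475), and it did not pass when any single array was left out.

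Alveolar epithelial genes were high on every lung-like array. Of 17 type 2 cell genes tested 15 were higher and none lower (median 6.18), against 23.4% of all genes higher. Sftpb, which spreads surfactant, read 7.31 and 6.86 in the pair and 13.42, 13.19 and 13.18 in the lung-like arrays, a rise of 6.18 (SE 0.23, limma adjusted p = 4.61e-05). Slc34a2, the phosphate transporter of these cells, read 6.34 and 6.19 against 14.41, 14.20 and 13.57. Abca3, the lipid pump of lamellar bodies, rose by 3.38 from 9.79 and 9.12. Napsa and Ctsh, proteases that trim surfactant proteins and occur in white cells too, also rose, Ctsh by 2.12 and Napsa from 11.73 and 11.80 to 13.60, 13.22 and 12.99.

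Of type 1 cell genes, 15 of 15 tested were higher, each at least 4-fold (median 5.13). Hopx, a homeodomain cofactor, read 9.29 and 9.87 against 12.77, 14.22 and 13.75; Pdpn, podoplanin, 6.08 and 4.54 against 12.13, 11.37 and 12.01; and Cav1, caveolin of the thin cell membrane and of endothelium, 7.54 and 7.20 against 12.82, 14.21 and 13.92. Aqp5, the water channel, read 5.71 and 5.06 against 8.47, 9.52 and 11.32, so WT 2 was the highest. KA/KA 2 was the lowest of the lung-like arrays for Aqp5, Hopx and Cav1 and the highest for Pdpn.

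Airway genes varied inside the lung-like arrays. Of 12 club cell genes tested 9 were higher (median 5.97). Scgb3a2, a second secretoglobin, read 5.96 and 6.24 against 12.93, 14.35 and 13.98, and Cyp2f2, the cytochrome that marks club cells, 5.20 and 4.70 against 12.28, 14.41 and 13.94. Bpifa1, a secreted protein of large airways and nose, read 4.38 and 4.15 against 5.05, 11.60 and 13.73, so KA/KA 2 was near the pair and the gene did not pass (limma adjusted p = 0.0785). Reg3g, an antibacterial lectin of airways, was dim under the filter and had the same order, with 4.20 and 4.26 against 5.13, 10.84 and 10.67.

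Of 19 ciliated cell genes on the array only 8 passed the filter on dim genes, and 5 of those were higher (median 2.41; 3 without KA/KA 1 and 2 without WT 1). Dynlrb2, a dynein light chain, read 5.56 and 5.59 against 8.89, 10.91 and 11.25, and Tppp3, a tubulin-binding protein, 8.17 and 6.25 against 10.17, 11.88 and 12.80. Foxj1, the master regulator of motile cilia, was too dim to test and read 5.65 and 4.83 against 6.14, 7.03 and 7.35. KA/KA 2 was the lowest of the lung-like arrays for all 3 genes.

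General epithelial genes were higher in 13 of 14 tested cases (median 4.86). Cdh1, E-cadherin, read 7.14 and 7.44 against 12.28, 11.56 and 12.54, and Krt18, a keratin of simple epithelia, 6.33 and 6.17 in the pair with a rise of 4.96. Of 10 claudin genes tested 6 were higher (median 2.88) and none lower, with 1 lower without KA/KA 2 or without KA/KA 3 and 2 without WT 2. Ion and water transport genes were higher in 6 of 7 (median 3.30), among them Scnn1b, a subunit of the epithelial sodium channel, at 6.10 and 6.57 against 8.90, 9.71 and 10.28. The enzymes of xenobiotic metabolism were higher in 12 of 13 (median 4.48; 7 without WT 1). Cyp2b10 read 5.18 and 4.55 against 10.81, 13.10 and 12.91, and Fmo2, the flavin monooxygenase of lung, 5.28 and 6.71 against 12.16, 13.55 and 13.29.

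The transcription factors that pattern lung gave 15 higher of 15 tested (median 4.09). The list median was only 5.48 and 5.72 in the pair, so members dim there could pass the filter only through the lung-like arrays. With no filter 16 of 18 were higher (median 3.69). Foxa2, of airway and alveolar epithelium, read 4.95 and 5.58 against a range of 9.88 to 10.01. Tbx4 of lung mesenchyme read 5.16 and 4.37 against 10.75, 11.21 and 11.85. Tcf21, a factor of lung fibroblasts, read 4.32 and 4.33 against 10.90, 11.49 and 13.18. Nkx2-1, the lung lineage factor, was under the filter on dim genes at 4.80 and 4.23 against 6.64, 5.29 and 6.86. Of 4 Hox genes bright enough to test, 3 were higher: Hoxb2 read 5.77 and 5.64 against 8.41, 8.83 and 9.36.

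**Figure D3:**
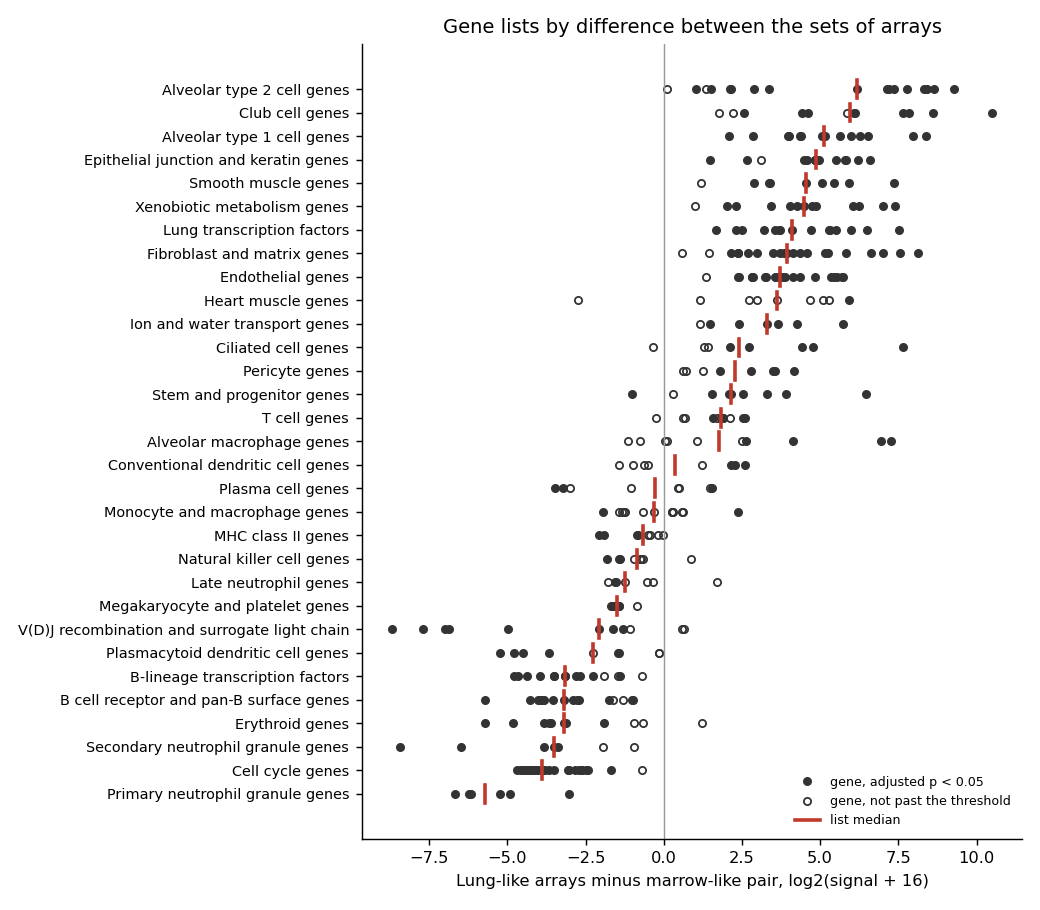
Differences between the sets (lung-like arrays minus marrow-like pair, log2(signal + 16)) for the tested members of each gene list; filled points passed an adjusted p of 0.05, open points did not, and the red bar is the list median. The primary granule list has the lowest median at -5.71 and the type 2 cell list the highest at 6.18.

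Genes of blood vessels and connective tissue were also higher in the lung-like arrays. Of 22 endothelial genes tested 21 were higher (median 3.72; 12 without WT 1). Sox17, a factor of arterial endothelium, rose by 5.71 to 10.64, 11.92 and 11.52; Vwf, von Willebrand factor, also made by platelets, 9.18 and 7.87 against 12.14, 13.10 and 12.68; and Ramp2, the partner of the adrenomedullin receptor, 7.53 and 7.34 against 10.97, 13.94 and 13.44. Pecam1, which platelets and white cells share with endothelium, read 10.42 and 9.84 against 10.05, 11.88 and 12.47 and did not pass (limma adjusted p = 0.154). KA/KA 2 was the lowest lung-like array for all of these. Of 4 lymphatic genes 2 were higher (median 1.39; 1 without WT 1, and 1 lower without KA/KA 3); Lyve1, the hyaluronan receptor, rose by 6.24.

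Fibroblast and matrix genes were higher in 19 of 21 (median 3.95), and collagen chains in 17 of 25 (median 2.79; 9 without WT 1). Pdgfra, the growth factor receptor of lung fibroblasts, read 7.55 and 7.41 against 12.10, 12.87 and 12.95, and Mfap4, an elastic fibre protein, 4.36 and 4.47 against 11.06, 12.07 and 12.77. Col1a1, a chain of type I collagen, read 8.75 and 7.55 against 11.49, 8.30 and 8.98 and did not pass (limma adjusted p = 0.246); only KA/KA 2 was above the pair by more than 2 units. Smooth muscle genes were higher in 8 of 9 (median 4.55) and pericyte genes in 5 of 8 (median 2.28; 3 without KA/KA 1 and 3 without WT 1). Tagln, transgelin of the contractile apparatus, read 5.25 and 4.66 against 12.42, 12.06 and 12.44. Mesothelial genes, of the membrane that covers lung, were higher in 3 of 4 (median 3.33; 1 without KA/KA 1), such as Msln, mesothelin, at 5.03 and 5.83 against 9.65, 8.52 and 9.64.

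Immune genes found in both tissues were listed by cell type. Of 13 monocyte and macrophage genes, 1 was higher and 1 lower (median -0.31); 5 were lower without KA/KA 2 (median -0.82), 3 higher without WT 2 (median 0.23) and none in either direction without KA/KA 1. Csf1r, the receptor of macrophage growth factor, read 12.91 and 12.13 against 13.48, 13.28 and 12.55, and the sets overlapped. Ccr2, the receptor that brings monocytes out of marrow, fell by 1.93 (9.57 and 9.82 against 7.80, 7.88 and 7.60; limma adjusted p = 0.00166), though not without KA/KA 1. Cd14, a lipopolysaccharide co-receptor, rose by 2.39 (limma adjusted p = 0.038), but not when any 1 array other than WT 2 was left out.
The complement genes C1qa, C1qb and C1qc were lower in WT 2 than in every other array, for C1qa 13.17 and 13.12 against 13.34, 12.42 and 9.94.

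Of 10 genes listed for alveolar macrophages 4 were higher (median 1.78; 2 without KA/KA 1, then with a median of 2.96, and 2 without WT 1). Car4, a carbonic anhydrase that lung capillaries make too, read 5.30 and 5.51 against 11.45, 12.85 and 12.78, and Plet1, also an epithelial gene, 4.79 and 4.23 against 11.31, 12.39 and 11.61. Itgax, the integrin CD11c of lung macrophages and dendritic cells, rose by 2.63 (8.90 and 8.02 against 12.28, 10.72 and 10.25), which did not pass without KA/KA 1 or without WT 1. Marco, a scavenger receptor, read 4.81, 10.35 and 4.64 in the lung-like arrays, so KA/KA 3 was the highest, and the difference between the sets did not pass (limma adjusted p = 0.636). Of 8 conventional dendritic cell genes 3 were higher (median 0.36), and 1 without KA/KA 1, without WT 1 or without KA/KA 3; the median was 0.01 without KA/KA 2 and 0.87 without WT 2.

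T cell genes leaned to the lung-like arrays, with 5 of 11 higher and none lower (median 1.84), but this count was 1 to 3 when KA/KA 1, WT 1, KA/KA 2 or KA/KA 3 was left out, 9 without WT 2, and 2 under quantile normalisation or centring; without KA/KA 3 the median was 0.93. Cd3g, a chain of the T-cell receptor complex, read 7.39 and 8.01 against 9.65, 10.70 and 8.45, and Thy1, also of fibroblasts, 6.96 and 6.36 against 8.97, 9.83 and 8.95. Natural killer cell genes leaned the other way, with 3 of 8 lower (median -0.87) and none without WT 1; Klrd1, the CD94 lectin, read 10.17 and 11.19 against 8.46, 9.18 and 8.98. Of 8 MHC class II genes 3 were lower (median -0.67), 1 without KA/KA 1 and none without WT 1. Cd74, the invariant chain, read 13.52 and 13.90 against 13.46, 13.22 and 13.07, so its level was close on all 5 arrays. Of mast cell, basophil and eosinophil genes 2 could be tested; Prg2, the major basic protein of eosinophils, read 12.34 and 9.58 against 6.75, 7.83 and 5.71.

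Circadian clock genes moved in both directions: of 11 tested, 9 were higher in the lung-like arrays and 2 lower. Nr1d1, a repressor driven by the CLOCK complex, read 5.27 and 4.70 against 8.27, 8.72 and 9.42, and Per3, 7.06 and 6.66 against 10.27, 9.75 and 10.13. Dbp, another output of that complex, read 8.82 and 8.88 against 11.40, 10.29 and 10.86. Arntl, the CLOCK partner that NR1D1 represses, read 11.85 and 11.38 against 8.35, 9.06 and 8.91, a fall of 2.84 (limma adjusted p = 0.000646). Cry1, the second gene that fell, did so by 1.05 and did not pass without KA/KA 1, WT 1, KA/KA 2 or WT 2. Time of collection is not among the labels used here.

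Immediate early and stress genes were higher in 7 of 14 (median 1.70; 4 without KA/KA 1 and 4 without WT 1). Dusp1, a phosphatase of stress kinases, read 9.20 and 9.54 against 12.59, 13.62 and 13.39, and Jun, 8.75 and 8.21 against 11.05, 12.10 and 11.72. Junb, of the same family, read 8.93 and 8.94 against 9.96, 9.81 and 8.33 with overlapping sets. Imprinted growth genes were higher in 7 of 8 (median 2.52; 3 without KA/KA 1 and 3 without WT 1), among them Peg3 at 5.15 and 4.78 against 10.73, 10.95 and 9.74 and the noncoding Meg3 at 7.33 and 7.63 against 12.49, 10.58 and 9.85. Of 10 hypoxia and glycolysis genes 4 were higher (median 0.90; 2 after centring, without KA/KA 1 or without WT 1), and without KA/KA 2 the median was 0.10 with 3 higher; Vegfa, the vessel growth factor that type 1 cells make, rose by 3.49.

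Over all genes 23.4% were called higher and 16.7% lower. Of the families that every cell uses, ribosomal protein and respiratory chain genes were called in smaller shares than these. Splicing factors were called lower in a larger share, and proteasome genes in a slightly larger one. Of 46 cytosolic ribosomal protein genes 1 was higher and 5 lower (median -0.28), none of them without KA/KA 1 or without WT 1, and 11 were lower under quantile normalisation. Of 77 respiratory chain genes none was higher and 2 lower (median -0.24), and 14 were lower after centring. Proteasome genes were lower in 9 of 38 (median -0.63), in 25 after centring, in 2 without WT 1 (median -0.42) or without KA/KA 3 and in 4 without WT 2. Splicing factors were lower in 26 of 45 and higher in 1 (median -0.80), with 14 lower without KA/KA 1 and 11 without WT 1.

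Genes of other organs were mostly dim, with exceptions in bone, fat and muscle. None of the liver, intestinal, brain or thyroid, thymus and oesophagus genes on the array was bright enough to test, and the highest level of any of these on a lung-like array was 6.96. Of kidney, neuroendocrine, nerve and fat genes 1 each could be tested and of skeletal muscle genes 3, and none of these passed. Ckm, the creatine kinase of skeletal and heart muscle, read 6.32 and 4.50 against 6.96, 7.91 and 10.43, and it passed without KA/KA 2. Of 4 bone cell genes tested, Ibsp, bone sialoprotein, fell by 3.22 and Ctsk, cathepsin K of osteoclasts and some lung fibroblasts, rose by 3.96 and reached 13.61 in KA/KA 2; Ctsk did not pass without KA/KA 1, WT 1 or KA/KA 3, and Ibsp was then too dim to test without KA/KA 1 or without WT 1. Adipoq, the fat cell hormone, read 10.29 and 10.67 in the pair and 5.68, 7.29 and 9.96 in the lung-like arrays, and the difference did not pass (limma adjusted p = 0.08).

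**Figure D4:**
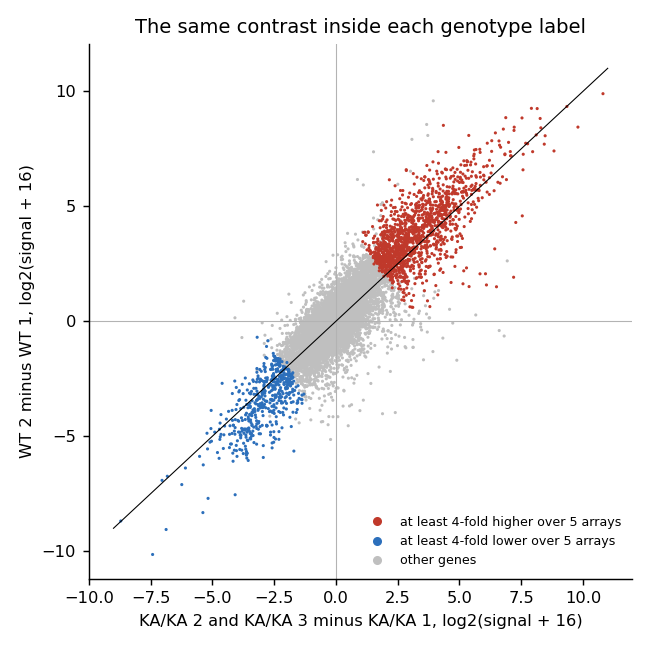
Each point is 1 gene: its difference inside the KA/KA label (mean of KA/KA 2 and KA/KA 3 minus KA/KA 1, x axis) and inside the WT label (WT 2 minus WT 1, y axis), both as log2(signal + 16). Of the 1979 coloured genes, which differed at least 4-fold over all 5 arrays, 1588 differed at least 4-fold the same way inside both labels.

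Inside the genotype labels, most of the largest differences were found in both, while some lists differed. Of the 1979 genes at least 4-fold apart, 1588 (80.2%) were at least 4-fold apart in the same direction both between KA/KA 1 and the other KA/KA arrays and between WT 1 and WT 2. These genes were chosen on the same 5 arrays, so the share is a description. List medians inside KA/KA and inside WT were -0.12 and -2.17 for the late neutrophil genes, 2.42 and 0.37 for the T cell genes, 2.51 and 6.17 for the heart genes, and 0.68 and -1.47 for the plasma cell genes; these differences between labels were not tested. Fitting genotype as a covariate gave 2447 higher and 1617 lower genes.

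**Figure D5:**
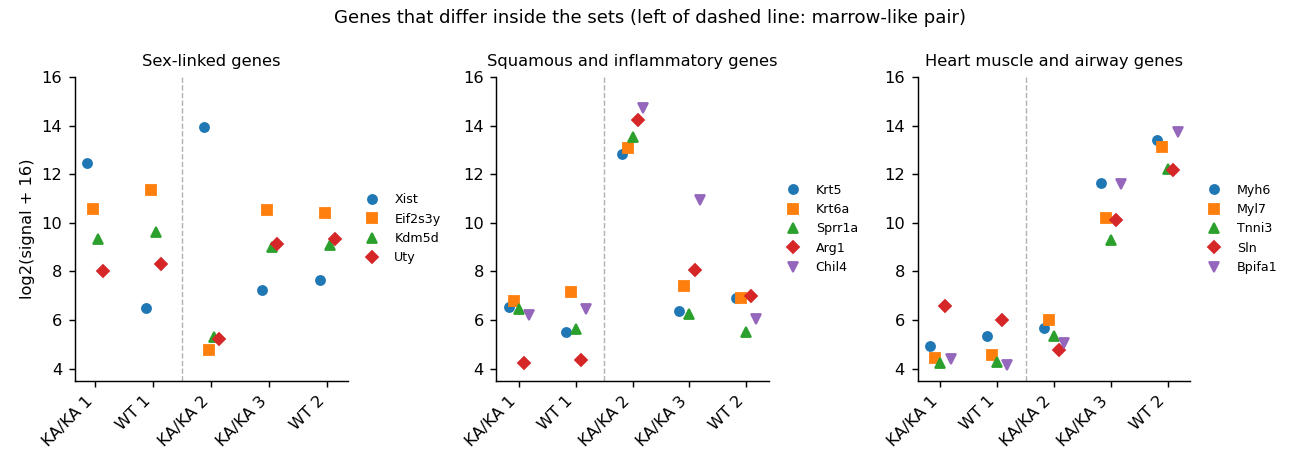
Genes that differ inside the sets, as log2(signal + 16) on each array: sex-linked genes (left), squamous and inflammatory genes (middle), heart muscle and airway genes (right); the dashed line separates the marrow-like pair from the lung-like arrays. KA/KA 2 alone is high in Krt5 and Sprr1a (12.85 and 13.52), and WT 2 is highest in Myh6 (13.43).

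The lung-like arrays were not alike. KA/KA 2 was at least 4-fold above both others in 85 genes and at least 4-fold below both in 82, WT 2 in 28 and 99, and KA/KA 3 in 16 and 7. Genes of squamous epithelium were among those high in KA/KA 2: Krt5, a basal cell keratin, read 12.85 against 6.36 and 6.93 in the other lung-like arrays, Krt6a 13.07 against 7.40 and 6.93, and Sprr1a, a cornified envelope protein, 13.52 against 6.24 and 5.52. Arg1, arginase, read 14.23 against 8.08 and 6.98. None of the 4 tested genes of the basal and squamous list passed between the sets (list median 2.27, and -0.03 without KA/KA 2).

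Heart muscle genes were low in KA/KA 2. Myh6, the atrial and adult mouse heart myosin, read 5.68 in KA/KA 2, 11.66 in KA/KA 3 and 13.43 in WT 2, and Tnni3, cardiac troponin I, 5.35, 9.30 and 12.20. Of 9 heart genes tested 1 was higher between the sets (median 3.63), against 23.4% of all genes higher. Without KA/KA 2 9 of 10 were higher, and without WT 1 the median was 2.97. Without WT 2 only 4 could be tested, with 1 higher and 1 lower (median 1.45). Actc1, cardiac actin, was the gene that passed, at 6.09 and 5.08 against 9.75, 11.13 and 13.60. Myl4, the atrial light chain, which immature blood cells also make, read 12.36 and 12.71 in the pair and 6.76, 9.79 and 12.87 in the lung-like arrays.

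A few genes were high in KA/KA 2 and KA/KA 3 and not in WT 2; the 3 named here were chosen after their values were seen. Saa3, an acute phase protein, read 13.86 and 13.58 in the KA/KA lung-like arrays and 7.33 in WT 2, against 6.91 and 7.97 in the pair. Chil4, a chitinase-like protein of inflamed lung, read 14.72 and 10.94 against 6.05, with 6.22 and 6.46 in the pair. Itln1, intelectin, read 10.66 and 11.86 against 5.87. With 2 KA/KA arrays and 1 WT array among the lung-like arrays, no test of genotype was made within them.

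KA/KA 3 had the fewest such genes. Camp read 8.09 there against 5.07 and 4.61 in the other lung-like arrays, and Myrip, a linker of melanosome-like vesicles to myosin, 11.79 against 7.35 and 8.57. Col12a1, a collagen of fibril surfaces, read 7.26 against 10.58 and 10.19, and Igfbp3, a binding protein of insulin-like growth factors, 8.04 against 11.23 and 10.90.

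Inside the pair 4 genes were at least 4-fold higher in WT 1 than in KA/KA 1 and 19 at least 4-fold lower. Epx, eosinophil peroxidase, read 9.83 in KA/KA 1 and 7.08 in WT 1, in the same direction as Prg2 above. Ccl8, a chemokine, read 11.27 and 8.67, and Mcam, an adhesion protein of vessels, 7.66 and 5.08.

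Sex-linked genes cut across the sets. Eif2s3y, on the Y chromosome, read 10.55 and 11.37 in the pair and 4.78, 10.53 and 10.41 in the lung-like arrays, and Kdm5d, also Y-linked, 9.33 and 9.62 against 5.29, 9.02 and 9.09. Xist, the RNA of the inactive X chromosome, read 12.48 and 6.49 against 13.93, 7.22 and 7.67. KA/KA 2 was therefore high in Xist and low in the Y-linked genes, KA/KA 1 was high in both, and WT 1, KA/KA 3 and WT 2 were high in the Y-linked genes only. Mixing of animals or of samples was not tested.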

How the data were processed

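The authors deposited 1 table of linear intensity values for 45101 mouse probe sets on 5 arrays. The submitters' processing notes list MAS5 with no version; the series text mentions a log2 transformation, but the deposited values were linear, with a trimmed mean of 500 on each array (2% left out at each end). Here log2(signal + 16) was taken with no further scaling. The platform annotation supplied gene names: 34958 had 1 gene symbol, 932 several and 9160 no row. Only probe sets with 1 symbol were used, and the 64 controls were left out. Probe sets at or above the 50th percentile of the mean level were kept, and each of 11392 genes was represented by its brightest one; 213 of 1914 called genes with several kept probe sets had members in both directions. limma 3.58.1 in R 4.3.3 (lmFit, eBayes with trend) tested the lung-like arrays (n = 3) minus the pair (n = 2), two-sided, with Benjamini-Hochberg adjustment and a threshold of 0.05, after a test on simulated data. With 10 splits of the arrays, an exact permutation test cannot go below 0.1 and was not run. The number of arrays limits precision. Genes named are the 15 largest differences each way, the list members, the 4 markers and the genes that set 1 array apart, with values given for those whose role is described. The members, the lists and the split were chosen with earlier results of these data known. Alternatives covered pseudocount, normalisation, filter, probe set choice, covariate, eBayes settings and each array left out. The transcript of the mutated gene is not analysed here.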

Additional observations from a re-analysis of the deposited data

Results flagged for a closer look

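Some differences between the sets had opposite signs inside the genotype labels. Both KA/KA lung-like arrays were then on one side of KA/KA 1, and WT 2 on the other side of WT 1. None of these differences between labels was tested, and each WT value is 1 array minus 1 array. WT 1 and KA/KA 1 differed by a median size of 0.34 over all genes tested. The WT values of Ccl8, Krt6a and Myl4 were smaller than that in size, so they show little change inside WT. Saa3 differed by 6.81 inside KA/KA and by -0.64 inside WT, and Chil4 by 6.61 and -0.40. Ccl8 differed by 2.61 and -0.16, Jchain by 0.63 and -3.63, Junb by 0.95 and -0.61, and Krt6a by 3.43 and -0.25. Myl4 fell inside KA/KA, at -4.08, and differed by 0.15 inside WT. The median of the conventional dendritic cell genes differed by 0.72 inside KA/KA and -0.10 inside WT. That of the cytosolic ribosomal protein genes differed by 0.32 and -1.02, and that of the sex-linked genes by -2.04 and 0.24. The sex-linked list mixes Xist with Y-linked genes. Its median level was 9.94 in KA/KA 1, 5.25 in KA/KA 2 and 9.07 in KA/KA 3, so KA/KA 2 was by far the lowest. KA/KA 2 was also the array high in Krt6a.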

How the results depend on the processing

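No paired analysis was possible because the sets share no replicate number in the labels. Leaving out 1 array at a time gave 1477 to 2667 higher genes, 745 to 1850 lower genes, 1174 to 1453 at least 4-fold higher and 368 to 593 at least 4-fold lower. Keeping probe sets above the 75th percentile left 1337 higher genes, with 608 at least 4-fold higher and 260 at least 4-fold lower, since fewer were tested, and centring gave 3184 lower genes. The other alternatives kept these counts within 1.5 times. Of 144 tested genes named, 143 kept their direction under all 16 alternatives that could be fitted. The exception was Xist (0.12 as reported), which read -0.13 under quantile normalisation, -0.23 with centring, -0.35 with probe sets averaged, -0.82 without probe sets shared between genes, -0.58 with genotype as a covariate, and from -2.87 (without WT 1) to 3.12 (without KA/KA 1) with 1 array left out; without KA/KA 2 it was -2.04. Named genes that lost their call numbered 15 without KA/KA 1 and 22 without WT 1, and 3 to 5 without each of the others; without WT 1 these included Aqp5, Kit, Klrd1, Meg3, Ms4a1, Ngp, Pf4 and Tppp3, and without KA/KA 1 they included Kit, Meg3 and Prg2. Small list medians changed sign: with that stricter filter, bone 1.68, conventional dendritic cells -0.76 and monocytes 0.25; without shared probe sets, dendritic cells -0.51; and with no filter, plasma cells 0.12. With 1 array left out the medians ranged from -2.48 to 0.22 for bone, from -0.82 to 0.23 for monocytes, from -0.97 to 0.26 for plasma cells, from -0.74 to 1.63 for skeletal muscle, from -0.62 to 0.081 for ribosomal genes, from -0.52 to 0.042 for the respiratory chain and from -0.026 to 3.67 for squamous genes. The cause was not tested. Signals near the floor of 4 limit the fold changes, whose size depends on the constant added.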
